A study of Bos taurus with 12 samples.

Results

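bta-miR-132 and bta-miR-212 are the bovine members of a miRNA pair known to be induced by gonadotropins in mouse granulosa cells. Both were described here across 4 groups of granulosa cells. The members were chosen by name from the count files, and the 2 names were found among 755 mature miRNA names, each with a single precursor entry. Granulosa cells were taken from subordinate follicles (SF) and dominant follicles (DF) of Simmental heifers on day 3 and day 7 after estrus, with 3 biological replicates per group. All heifers had been synchronized with the prostaglandin analogue cloprostenol and the GnRH analogue buserelin, and different heifers were slaughtered on the days. SF and DF were separated by follicle diameter, with larger diameter limits for both classes on day 7 than on day 3. Comparisons of the days within a class therefore also compare follicles of different size ranges. The contents of follicles of one size class were pooled before the cells were spun down. The paper counts 3 dominant follicles at day 7 and more in each other group. A replicate may therefore stand for several follicles or, in DF at day 7, for a single follicle. On each day the follicles of both classes were dissected from the ovaries of the same set of heifers. SF and DF libraries of a day may therefore share animals, but the labels do not tie a replicate to an animal. The p values rest on the spread between these samples, and those of the main tests do not allow for shared animals.

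The MIR132 and MIR212 genes lie next to each other in the bovine RefSeq gene order of assembly ARS-UCD2.0, between OVCA2 and HIC1, and no other annotated gene separates the pair. In mammals this tandem locus is transcribed as one unit, and its promoter responds to CREB, the transcription factor that cyclic AMP activates. Luteinizing hormone acts on granulosa cells through cyclic AMP, and in mouse granulosa cells miR-132, miR-212 and miR-21 are known to rise after an ovulatory hormone stimulus. The 3′ arm products of both hairpins are known to share a seed, but the bovine names carry no arm, and which arm the counts stand for was not established here. No second arm was listed for either hairpin.

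Both members were scarce. Over the 12 libraries, bta-miR-132 had 216 reads, which was 0.00635% of the reads on known miRNAs and rank 168 of 378 detected miRNAs. bta-miR-212 had 48 reads, which was 0.00141% of the reads and rank 228. Detection in a group required 1 or more reads in 2 or more of its 3 replicates, and both members met this in all 4 groups. The libraries held between 160418 and 405129 reads on known miRNAs. A count of 3 reads, taken as the limit, corresponded to between 7.41 and 18.7 RPM (reads in 1000000 reads on known miRNAs), which covers counting error only. At this depth a single read moves the level of bta-miR-212 by a large share of its value. In bulk samples such as these, fewer cells of a type and less RNA per cell cannot be told apart.

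SF was compared with DF on each day, and the days were compared within SF and within DF, which gave 4 comparisons. The thresholds for differential expression were a log2 fold change of 1 or more in either direction, p up to 0.05 and a false discovery rate up to 10%, in edgeR's quasi-likelihood test over all miRNAs tested. Levels are normalized counts, the raw count divided by the size factor of the library. The SE of a log2 fold change and its 95% interval were derived from the test statistic.

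bta-miR-132 had its highest level in DF at day 7 and its lowest in DF at day 3. In DF at day 3 the 3 replicates had 3, 11 and 7 raw reads, or 2.31, 6.90 and 7.01 normalized counts. In DF at day 7 they had 40, 16 and 47 raw reads, or 35.1, 27.3 and 43.4 normalized counts. The lowest DF library of day 7 lay above the highest DF library of day 3. In SF at day 3 the levels were 11.0, 6.90 and 20.04 normalized counts, from 12, 5 and 16 raw reads. In SF at day 7 they were 11.0, 19.7 and 27.98 normalized counts, from 12, 19 and 28 raw reads. The SF libraries of the days overlapped, and on both days an SF library fell within the range of the DF libraries. The group means were 35.2 ± 8.04 normalized counts for DF and 19.6 ± 8.51 for SF at day 7, and 12.6 ± 6.73 for SF and 5.41 ± 2.68 for DF at day 3 (SD, n = 3). Each neighbouring pair of groups in this order overlapped, and no other pair of groups did.

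bta-miR-212 was ordered differently. Its SF libraries of day 3 had 6, 4 and 6 raw reads, or 5.48, 5.52 and 7.52 normalized counts. Its DF libraries of day 3 had 1, 2 and 1 raw reads, or 0.771, 1.25 and 1.00 normalized counts. All SF libraries of that day lay above all DF libraries. Each of these DF counts was below the limit of 3 reads, at 2.86, 4.94 and 4.28 RPM. At day 7 the SF libraries had 5, 6 and 6 raw reads and levels of 4.57, 6.22 and 5.996 normalized counts, close to those of day 3. The DF libraries of day 7 had 6, 0 and 5 raw reads and levels of 5.26, 0 and 4.61 normalized counts. The replicate without a read was the smallest library of the series, where a count of 0 allows a level of up to 18.7 RPM, and the other DF libraries had 19.5 and 15.3. Absence of bta-miR-212 from that library could therefore not be shown at this depth. The group means were 6.17 ± 1.16 in SF at day 3, 5.60 ± 0.897 in SF at day 7, 3.29 ± 2.87 for DF at day 7 and 1.01 ± 0.242 for DF at day 3 (SD, n = 3), and each neighbouring pair in this order overlapped.

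**Figure D1:**
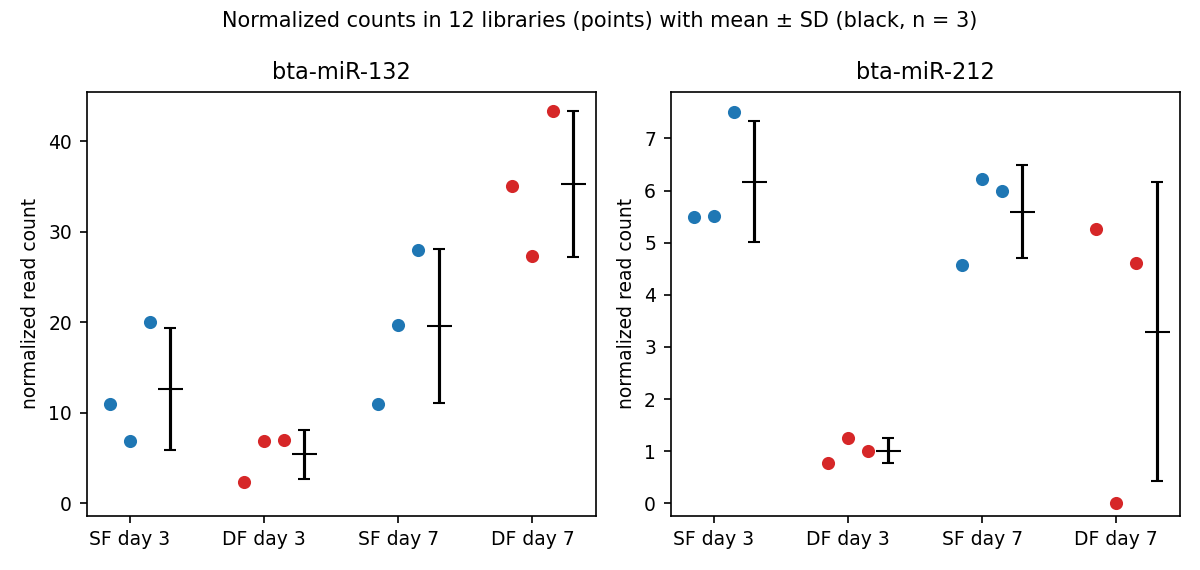
Normalized read counts of bta-miR-132 (left) and bta-miR-212 (right) on linear axes with different ranges, by group, with 1 point per library (SF blue, DF red) and the mean ± SD of 3 replicates in black. bta-miR-132 ranges from 2.31 normalized counts in a DF library of day 3 to 43.4 in a DF library of day 7, and bta-miR-212 is lowest in DF at day 3 apart from the DF library of day 7 without a read.

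At day 3 the comparison of SF with DF asks which miRNAs differ while follicles are recruited and selected. bta-miR-212 was higher in SF, and bta-miR-132 did not pass the thresholds. The log2 fold change of bta-miR-212 was 2.41 (SE 0.78, 95% interval 0.82 to 4.01, adjusted p = 0.0437, edgeR). With 16 reads in SF against 4 in DF, the ratio was 5.95 (exact 95% interval 1.92 to 24.4, counting error only). The call rested on these reads, and each DF library of day 3 was below the limit of 3 reads. It was lost with DESeq2 (adjusted p = 0.166), with all 12 libraries in one edgeR fit (adjusted p = 0.101) and with the replicate number as a block (adjusted p = 0.1002), and it held in the other 7 of 10 alternative settings that kept every library. It was also lost without SF replicate 1 (adjusted p = 0.1004) or SF replicate 3 (adjusted p = 0.109) of day 3. For bta-miR-132 the log2 fold change was 1.17 (SE 0.52, 95% interval 0.10 to 2.23, adjusted p = 0.156, edgeR). Of the 335 miRNAs tested at day 3, 5.67% were differentially expressed, 3.88% were higher in SF, and the libraries of the groups did not overlap for 27.8%, as they did not for bta-miR-212.

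At day 7, when a dominant follicle has been selected, neither member was differentially expressed between SF and DF. The log2 fold change of bta-miR-132 was -0.79 (SE 0.39, 95% interval -1.67 to 0.09, adjusted p = 0.159, edgeR), and that of bta-miR-212 was 0.66 (SE 0.71, 95% interval -0.93 to 2.24, adjusted p = 0.4996, edgeR). These intervals leave room for a change beyond 1 on the log2 scale in one direction for each member. Without the DF library that had no read, the value of bta-miR-212 was 0.25, and without SF replicate 1 that of bta-miR-132 was -0.48. Of the 350 miRNAs tested, 33.4% were differentially expressed on this day.

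The change from day 3 to day 7 in DF was the largest for bta-miR-132 among the 4 comparisons. Its log2 fold change was 2.68 (SE 0.44, 95% interval 1.73 to 3.63, adjusted p = 0.000213, edgeR), a 6.40 fold increase. It passed the thresholds in all 11 alternative settings that kept every library, with log2 fold changes from 2.36 to 2.70, and in all 6 fits that left out 1 library, with values from 2.28 to 2.91. In this comparison 40.3% of the 360 miRNAs tested were differentially expressed and 24.4% were higher at day 7. The libraries of the days did not overlap for 50% of them, bta-miR-132 included, and it had rank 89 by the size of its log2 fold change. bta-miR-212 had a log2 fold change of 1.73 (SE 0.91, 95% interval -0.23 to 3.68, adjusted p = 0.148, edgeR) and did not pass. It passed without the library that had no read (2.13, adjusted p = 0.0302, edgeR) and, with that library kept, when all 12 libraries were fitted together (1.75, adjusted p = 0.0833, edgeR).

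In SF the days did not differ by the thresholds for either member. The log2 fold change of day 7 against day 3 was 0.64 (SE 0.48, 95% interval -0.40 to 1.68, adjusted p = 0.740, edgeR) for bta-miR-132 and -0.12 (SE 0.55, 95% interval -1.29 to 1.05, adjusted p = 0.971, edgeR) for bta-miR-212. With 1 library left out, the value of bta-miR-132 lay between 0.31, without SF replicate 3 of day 7, and 1.09, without SF replicate 3 of day 3. Only 0.593% of the 337 miRNAs tested in SF were differentially expressed.

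Whether the difference between SF and DF itself changed between the days was tested as the interaction of follicle class and day over all 12 libraries. For bta-miR-132 the interaction was -2.08 on the log2 scale (SE 0.67, 95% interval -3.50 to -0.67, adjusted p = 0.0287, edgeR) and passed the thresholds, as did 26.5% of the 378 miRNAs tested. Without SF replicate 3 of day 3, the SF library of that day with the most bta-miR-132, it was -1.62 (adjusted p = 0.116, edgeR). For bta-miR-212 the interaction was -1.89 (SE 0.97, 95% interval -3.95 to 0.17, adjusted p = 0.192, edgeR). It passed only without the DF library of day 7 that had no read, where it was -2.25 (adjusted p = 0.0426, edgeR).

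**Figure D2:**
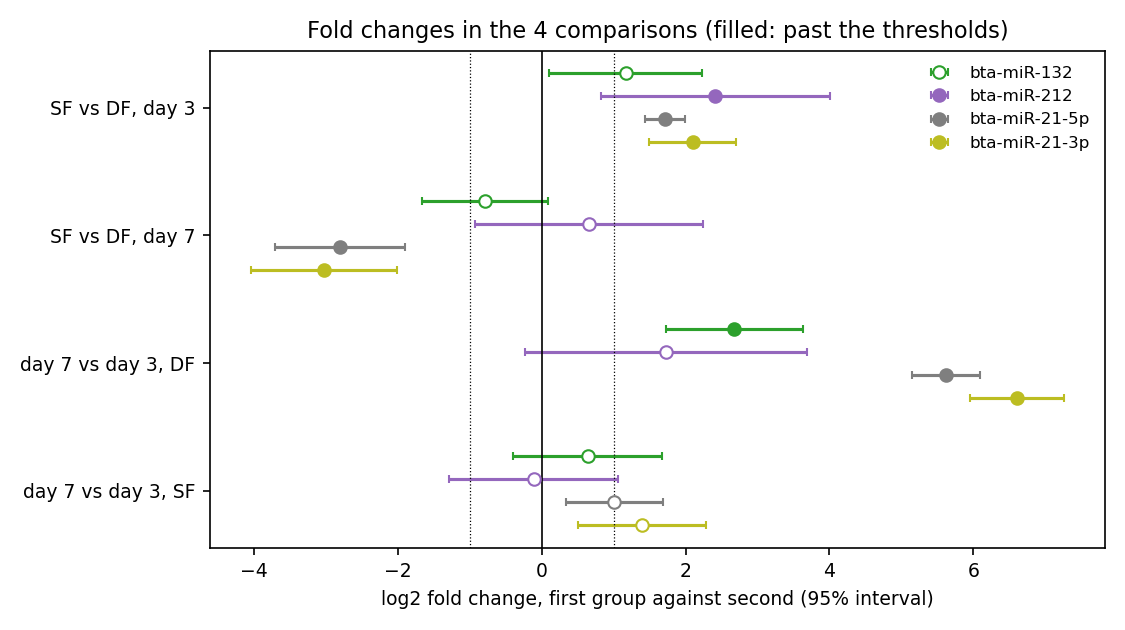
Log2 fold changes (x axis) with 95% intervals for bta-miR-132, bta-miR-212, bta-miR-21-5p and bta-miR-21-3p in the 4 comparisons, first group against second, with filled points where the thresholds were passed and dotted lines at -1 and 1. bta-miR-132 is filled only for day 7 against day 3 in DF (2.68) and bta-miR-212 only for SF against DF at day 3 (2.41), while both miR-21 arms are filled in every comparison except that of the days in SF.

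Counts of the pair within one library do not depend on how libraries are scaled, so the share of bta-miR-212 among the reads on both members was compared as well. In SF at day 3 this share was 33.3%, 44.4% and 27.3% in the 3 replicates, from 18, 9 and 22 reads on the pair. In DF at day 3 it was 25.0%, 15.4% and 12.5%, from 4, 13 and 8 reads. Each of these DF shares lay below the share that the limit of 3 reads makes in its library, 75.0%, 23.1% and 37.5%. In SF at day 7 it was 29.4%, 24.0% and 17.6%, from 17, 25 and 34 reads. In DF at day 7 it was 13.0%, 0% and 9.62%, from 46, 16 and 52 reads, where the 0 of 16 reads allows a share of up to 18.8% by the limit of 3 reads and of up to 20.6% by the exact 95% interval. On both days the lowest share of an SF library lay above the highest share of a DF library, at day 3 by 27.3% against 25.0%, a DF value from 4 reads. That separation at day 3 was lost in the log2 ratio with 0.5 added to each count, where the same SF library had -1.34 and the same DF library -1.22.

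Summed over replicates, bta-miR-212 made 32.7% of the 49 pair reads in SF and 16.0% of 25 in DF at day 3. At day 7 it made 22.4% of 76 in SF and 9.65% of 114 in DF. The exact 95% intervals were 19.9% to 47.5%, 4.54% to 36.1%, 13.6% to 33.4% and 4.92% to 16.6%, respectively, for counting error only. On this log2 scale the mean ratio of bta-miR-212 to bta-miR-132 was -0.86 ± 0.53 in SF and -1.92 ± 0.60 in DF at day 3, with -1.63 ± 0.48 and -3.60 ± 1.27 for SF and DF at day 7 (SD, n = 3). Over both days, SF exceeded DF by 1.51 (two-sided exact permutation test with follicle class permuted within each day, p = 0.01, where the smallest possible p is 0.005). Adjusted over the 5 tests of this ratio the p was 0.05, by Benjamini-Hochberg over exact permutation tests, so it lay on the threshold. With SF and DF paired by replicate number at day 7 the exact permutation p was 0.025, which exceeded 0.05 after the same adjustment. With 1 library left out at a time, the difference was between 1.15 and 1.75, with exact permutation p values from 0.005 to 0.025, which after adjustment exceeded 0.05 in 8 of the 12 cases. Within a single day or class, 3 libraries against 3 cannot give a p below 0.1 in an exact permutation test. The ratio differed between SF and DF by 1.06 at day 3 (exact permutation p = 0.2) and by 1.96 at day 7 (exact permutation p = 0.1). Between day 7 and day 3 it differed by -1.68 in DF (exact permutation p = 0.1) and by -0.77 in SF (exact permutation p = 0.2). The DF ratios of day 3 rest on bta-miR-212 counts below the limit of 3 reads. The DF library without a bta-miR-212 read, whose ratio of -5.04 rests on the added 0.5, weighed on these values. Without it the difference between SF and DF at day 7 was 1.24 and that between the days in DF was -0.96. In SF the difference between the days was -0.49 without SF replicate 2 of day 3.

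**Figure D3:**
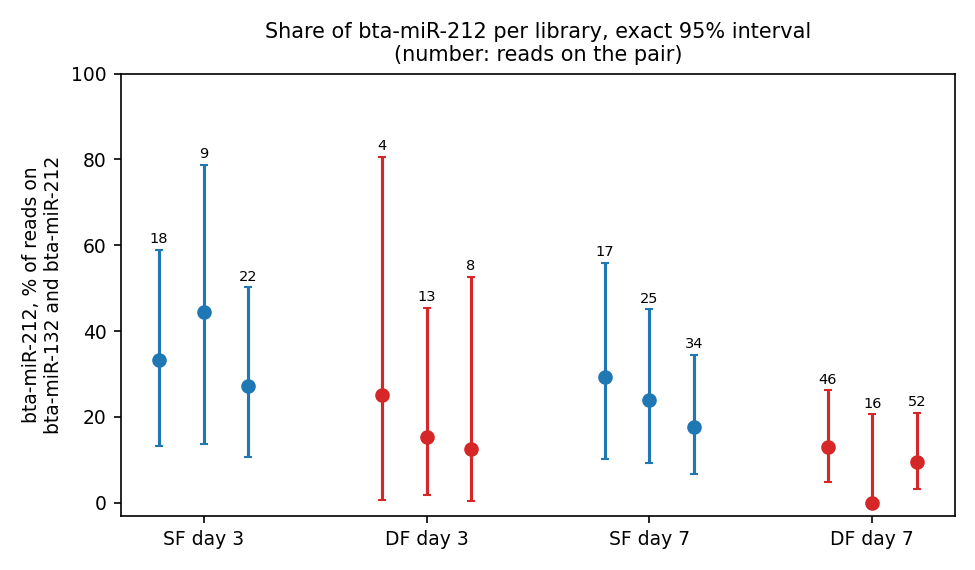
Share of bta-miR-212 in the reads on bta-miR-132 and bta-miR-212 (y axis, percent) in each of 12 libraries, SF blue and DF red, with exact 95% binomial intervals and the number of reads on the pair above each bar. Shares run from 17.6% to 44.4% in SF and from 0% to 25.0% in DF, and the intervals are wide because 4 to 52 reads lie behind each share.

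Across the 12 libraries, log2 levels of the members were only loosely alike, with a Pearson r of 0.37 and a Spearman rho of 0.32 on log2(normalized count + 1). The points share 4 groups, and many miRNAs moved with DF at day 7, so these values are descriptions. Among the 185 other miRNAs with a mean of at least 10 reads, bta-miR-21-3p (r = 0.90), bta-miR-222 (r = 0.90) and bta-miR-155 (r = 0.89) were most like bta-miR-132, and bta-miR-212 would take rank 58 among them. The group means of bta-miR-222 had the same order, with 6.76 ± 4.57 normalized counts for DF and 37.9 ± 11.7 for SF at day 3, and 81.3 ± 43.6 for SF and 798 ± 348 for DF at day 7 (SD, n = 3). Closest to bta-miR-212 were bta-miR-19b (r = 0.82), bta-miR-127 (r = 0.82) and bta-miR-449a (r = 0.78). With 48 reads in all, a likeness of bta-miR-212 to another miRNA is imprecise.

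**Figure D4:**
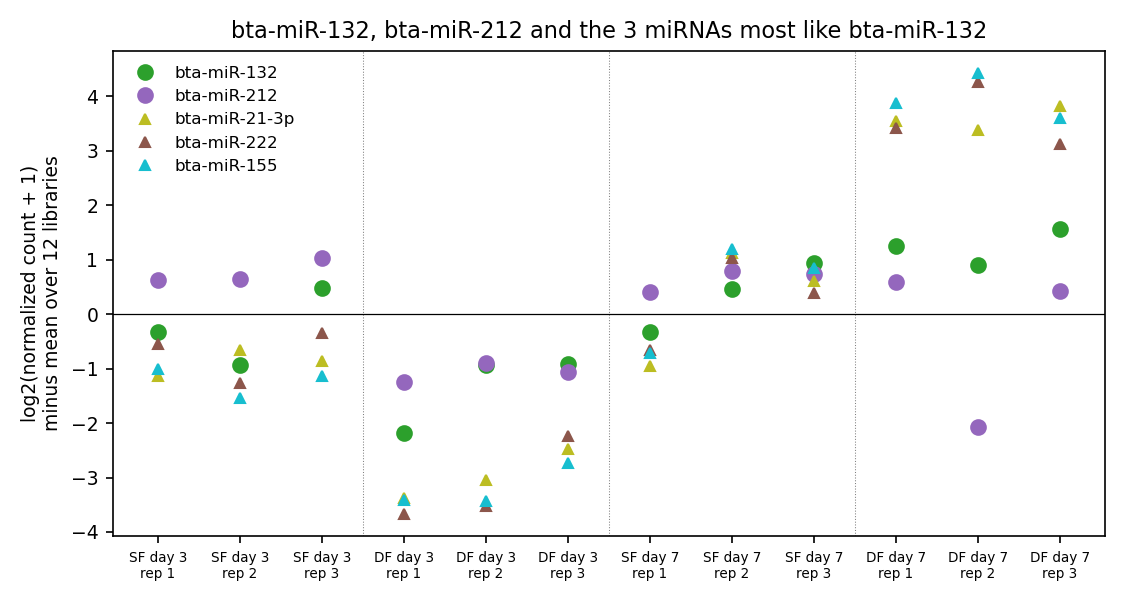
Log2(normalized count + 1) minus the mean over 12 libraries (y axis) in each library (x axis) for bta-miR-132 and bta-miR-212 (circles) and for bta-miR-21-3p, bta-miR-222 and bta-miR-155 (triangles). bta-miR-132 has its highest group mean in DF at day 7 and spans a smaller range than the triangles. bta-miR-212 is above its mean in every SF library and below it in every DF library of day 3. In DF at day 7, bta-miR-212 is above its mean apart from the library without a read.

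miR-21 is the third miRNA known to rise with this pair in mouse granulosa cells after the ovulatory stimulus, and it was far more abundant. At day 3, bta-miR-21-5p, the guide arm, had 2623, 2546 and 2495 normalized counts in SF and 687, 745 and 835 in DF. At day 7 it had 2262, 8003 and 4882 in SF and 37935, 30583.5 and 44367 in DF. Its log2 fold change of day 7 against day 3 in DF was 5.62 (SE 0.22, adjusted p = 2.47e-10, edgeR), beside 2.68 for bta-miR-132. Between SF and DF it was 1.71 at day 3 and -2.81 at day 7 and passed the thresholds on both days, beside 1.17 and -0.79 for bta-miR-132, which did not. The other arm, bta-miR-21-3p, had 57.1 ± 9.37 normalized counts in SF at day 3 (SD, n = 3) and 1281 ± 200 in DF at day 7.

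A list of 15 miRNAs with a known link to hormone response or steroid production in granulosa cells, miR-21 included, was set beside the pair. Those counted below as higher, lower, risen or fallen passed the thresholds. At day 3, 2 of the 12 tested were higher in SF, both arms of miR-21, and 0 were lower, beside 3.88% higher and 1.79% lower over all miRNAs tested. An unadjusted p of at most 0.05 in edgeR was found for 5 of the 12, beside 24.8% of all. Their median log2 fold change was 0.10, against -0.04 over all miRNAs tested. At day 7, 4 of 13 were higher in SF (bta-miR-202, bta-miR-224, bta-miR-31 and bta-miR-383) and 2 were lower, again the miR-21 arms, beside 15.1% and 18.3% of all miRNAs tested, with a median of 0.14 against -0.05. In DF, 3 of 13 rose from day 3 to day 7, the miR-21 arms and bta-miR-145, and 3 fell, bta-miR-202, bta-miR-224 and bta-miR-31, beside 24.4% and 15.8% of all, with a median of -0.41 against 0.05. In SF, 0 of 12 passed the thresholds between the days in edgeR, and 3 had an unadjusted p of at most 0.05, beside 0.593% and 11% of all. The list thus held changes in both directions in DF, and bta-miR-132 changed in the direction of miR-21 there.

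Markers of other cell types moved with DF at day 7, the group with the most bta-miR-132. In that comparison with day 3, 24.4% of all miRNAs tested rose past the thresholds and 47.2% had an unadjusted p of at most 0.05 in edgeR. All 4 leukocyte miRNAs (bta-miR-142-5p, bta-miR-142-3p, bta-miR-150 and bta-miR-223) rose from day 3 to day 7 in DF, and their summed level went from between 118 and 166 normalized counts to between 803 and 8856. Within DF at day 7 that sum was 3189, 8856 and 803 in replicates 1 to 3, so the library with the highest sum had the lowest level of bta-miR-132, 27.3 normalized counts, and no read of bta-miR-212. All 4 miRNAs of mesenchymal cells (bta-miR-143, bta-miR-145, bta-miR-199a-3p and bta-miR-214) rose as well, from sums between 2395 and 4164 to sums between 8260 and 16122. There the library with the highest sum, replicate 3, had the highest bta-miR-132. The gonad miRNA bta-miR-202 fell in DF from between 3209 and 3766 to between 374 and 1000.3 normalized counts. It was present in every library. Of the endothelial miRNAs 1 of 2 rose past the thresholds in DF, bta-miR-126-3p. Of the erythrocyte miRNAs 0 of 3 passed in edgeR, with 1 at an unadjusted p of at most 0.05. The neuronal miRNA bta-miR-124a had no read in any library, and bta-miR-9-5p, which rose in DF, had at most 3.76 normalized counts in a library. The part of other cell types in the levels of bta-miR-132 and bta-miR-212 was not tested.

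At day 3, where bta-miR-212 was higher in SF, 0 of 3 tested leukocyte, 0 of 3 erythrocyte and 0 of 2 endothelial miRNAs passed the thresholds in edgeR, with 0, 0 and 1 at an unadjusted p of at most 0.05. Of the mesenchymal miRNAs, bta-miR-214 alone passed the thresholds, with a log2 fold change of 1.03. All 4 had higher levels in SF, with log2 fold changes of 0.53 for bta-miR-143, 0.65 for bta-miR-145 and 0.545 for bta-miR-199a-3p. Each had an unadjusted p of at most 0.05 and an adjusted p of at most 0.0739 in edgeR. Over all miRNAs tested on that day, 3.88% passed the thresholds with higher levels in SF and 24.8% had such an unadjusted p. Summed mesenchymal levels were between 3987 and 5246 normalized counts in SF and between 2395 and 4164 in DF on that day. The gonad miRNA bta-miR-202 had lower levels in SF, between 2475 and 2910 normalized counts against between 3209 and 3766 in DF. Its log2 fold change of -0.36 (adjusted p = 0.0649, edgeR) did not pass the thresholds. The neuronal miRNA bta-miR-9-5p had a log2 fold change of 2.87, with an unadjusted p of at most 0.05 in edgeR. It did not pass the thresholds either, and it had at most 3.76 normalized counts in a library.

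The spread of the replicates was also set against counting error. The chi-square of the 3 counts against their size factors, per degree of freedom, where counting error alone gives about 1, was 2.80 for SF and 1.72 for DF at day 3, then 3.93 for SF and 1.41 for DF at day 7, for bta-miR-132. For bta-miR-212 it was 0.184, 0.0817, 0.152 and 1.48 in the same order.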

How the data were processed

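Granulosa cell small RNA of 12 libraries was sequenced on the Illumina platform. The authors removed adapters and low-quality or short reads with cutadapt, mapped the remainder to the bovine genome and assigned them to miRBase miRNAs with miRDeep2. The deposited values are raw read counts per pair of mature miRNA and precursor, without normalization. CASAVA 1.8.0 and FastQC are named in the submitters' processing notes. Reads on several precursors of one name are counted at each, so 906 entries were reduced to 755 names by keeping the entry with the highest total. The counts were made on an older genome assembly than the gene table used for gene order, so no coordinates are given. Mature sequences were not used here.

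Each comparison used its 6 libraries in edgeR 4.0.16 (R 4.3.3) with median-of-ratios (RLE) factors, a prior count of 0.125 and miRNAs detected in at least 1 group. Size factors for normalized counts were taken over all 12 libraries, with a geometric mean of 1. Benjamini-Hochberg adjustment ran over all miRNAs tested. Normalized counts and the fits scale libraries separately, so ratios can differ. The code was tested on simulated counts. Replicate pairs of a group gave chi-square values of 10.2 to 128 per degree of freedom, beyond sampling noise, and each library was kept as a replicate.

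Members and lists were chosen with earlier results of these data known. Named are the members, the lists and markers, bta-miR-21, and for each member the 3 miRNAs most correlated with it. No further miRNA gene lay beside the pair.

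Alternatives were DESeq2 1.42.0, TMM factors, scaling by library size, testing without a filter or with 10 reads in 3 libraries, one fit of 12 libraries, summed or separate entries, a block for the replicate number, a threshold of 5% on the false discovery rate, a prior of 2, a pseudocount of 1 for ratios, and leaving out each library. Keeping pairs by replicate number in the ratio test over both days was added after seeing the data. Libraries with the same replicate number at day 7 correlated in their deviations from the group means by 0.127, 0.159 and 0.181 over 186 miRNAs. Between SF and DF at day 3 these values ran from -0.143 to -0.0267. Between the days, where the heifers differed, they ran from -0.117 to 0.110, below each value of day 7. Whether SF and DF libraries with the same number share heifers was not tested. Pairing was used in alternatives only, not in the main tests. The labels do not say where the correlations at day 7 come from.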

Additional observations from a re-analysis of the deposited data

Results flagged for a closer look

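For bta-miR-132 the difference between SF and DF was not the same on the days, by the interaction test over all 12 libraries. The interaction was -2.08 on the log2 scale (SE 0.67, adjusted p = 0.0287, edgeR), the difference between log2 fold changes of SF against DF of -0.87 at day 7 and 1.21 at day 3 in the fit of all 12 libraries, neither of which passed the thresholds on its own. The interaction passed in 10 of 10 alternative settings that kept every library, with adjusted p values from 0.00619 to 0.0397 (edgeR or DESeq2). It passed in 11 of 12 fits that left out 1 library, and not without SF replicate 3 of day 3 (adjusted p = 0.116, edgeR). Of the 378 miRNAs tested, 26.5% passed the interaction test, and bta-miR-132 had rank 133 by the size of its interaction.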

How the results depend on the processing

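bta-miR-132 kept its direction and its side of the thresholds in 88 of 90 alternative fits and bta-miR-212 in 75 of 84. With all entries listed, bta-miR-132 passed at day 3 (1.21, adjusted p = 0.0979, range over alternatives 0.0979 to 0.346). The day 3 log2 fold change of bta-miR-212 no longer passed with DESeq2 (2.55) or with all 12 libraries in one fit (2.45). Nor did it pass with a replicate block (2.41, adjusted p = 0.1002, edgeR). Over the alternatives its adjusted p ranged from 0.0437 to 0.166 (edgeR or DESeq2). In DF, bta-miR-212 passed with all 12 libraries in one fit (1.75, adjusted p = 0.0833). The cause was not tested. The replicate block changed no other call of the members. With 1 library left out, log2 fold changes ranged at day 3 from 0.71 to 1.42 for bta-miR-132 and from 2.26 to 2.59 for bta-miR-212, in DF from 1.36 to 2.13 for bta-miR-212, at day 7 from -1.12 to -0.48 for bta-miR-132 and from 0.25 to 1.08 for bta-miR-212, in SF from 0.31 to 1.09 for bta-miR-132 and from -0.24 to 0.0296 for bta-miR-212, whose sign turned without SF replicate 3 of day 3, and for the interaction from -2.43 to -1.62 for bta-miR-132 and from -2.25 to -1.46 for bta-miR-212. With at least 10 reads in 3 libraries bta-miR-212 was not tested, and DESeq2 gave it no adjusted p between the days in SF. Library size alone moved the median log2 fold change of all miRNAs by at most 0.146, and no call of a member changed with it.

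Counts of differentially expressed miRNAs behind the percentages moved by over 1.5 times as follows. At day 3, 19 became 11 with DESeq2, 12 with at least 10 reads in 3 libraries, 8 with all 12 libraries in one fit and 10 to 21 with 1 library left out, lowest without SF replicate 1. In DF, 145 became 92 with at least 10 reads in 3 libraries. In SF, 2 became 5 with DESeq2, 12 without a filter, 1 with all 12 libraries, 7 with a replicate block, 10 with all entries listed and 0 with at least 10 reads in 3 libraries (edgeR, 25 at an unadjusted p of at most 0.05). It was 0 to 20 with 1 library left out, highest without SF replicate 1 of day 7. The ratio of the members kept its direction in all 52 alternatives. Its tests within a day or class cannot reach 0.05, and with a replicate block 3 pairs cannot give an exact p below 0.25. Over both days, the exact permutation p stayed up to 0.05 before adjustment, and was 0.025 with pairs kept at day 7 and 0.0312 with pairs kept on both days, the smallest that the latter design allows. These block tests were added after seeing the data, and adjusted over 5 tests both p values exceeded 0.05.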
